A study of Mus musculus with 2 samples.

Results

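The promoters described here were poor in CpG, the dinucleotide C followed by G, and nevertheless accessible in mouse spleen. Members were protein-coding genes of the GENCODE M21 annotation (mm10) whose most upstream transcription start site (TSS), with 500 bp either side, had a CpG observed/expected ratio below 0.25. This ratio is the CpG count times the window length, divided by the product of the C count and the G count. The window also had to overlap, by at least 1 bp, a peak of the longer deposited list in both libraries, and such a promoter is called open. Of 21938 nuclear protein-coding genes, 480 met both conditions. Since openness chose the members, peak shares and signals at these promoters are a description, and no test was made of them.

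The assay was DNase-seq, which reads open chromatin by sequencing the ends that the enzyme DNase I leaves where it can reach the DNA of nuclei. Whole spleen was taken from male mice of the strain B6CASTF1/J at an age of 10 days, the offspring of C57BL/6 and CAST/EiJ parents, with no treatment named in the labels. The series held 2 libraries in 1 group, numbered as biological replicates 1 and 2 and listed as separate tissue samples under a shared donor identifier. Depth is unknown because read totals were not analysed here, and the signal of a peak can be compared among peaks of the same library, or as a ratio of the libraries.

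In mammals, promoters rich in CpG are typically free of DNA methylation and open in many cell types, and they often serve genes that every cell uses. Promoters poor in CpG more often serve genes of specialised cells, and many of them are opened by the factors of a lineage, such as GATA and KLF factors in red cell precursors, PU.1 and other ETS factors in white cells, and IRF factors after interferon. In newborn and juvenile mice the spleen makes red cells, platelets and granulocytes while it fills with lymphocytes.

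The reference sequences below show 120 bases directly upstream of the TSS for the promoter with the highest mean signal in each of 5 cell type lists, among members whose peaks covered the TSS in both libraries. They are read on the strand of the gene from the mm10 (GRCm38) assembly, and the CAST/EiJ copy may differ. Capitals mark matches, on either strand, to searched motifs. CCNCNCCC stands for the box bound by KLF factors and CCAAT for the box named after its letters. The shorter ETS motif is AGGAAG, and the longer form typical of the factor PU.1 is GAGGAAGT. The E-box of helix-loop-helix factors was searched as CAGCTG, with a variant that has the letters CAGATG. The red cell gene Hbb-bt lies on the minus strand (chr7:103813997-103814116), as do the B cell gene Bank1 (chr3:136326067-136326186) and the T cell gene Cd5 (chr19:10739003-10739122). The neutrophil gene Itgam (chr7:128062520-128062639) and the megakaryocyte list gene Pdzk1ip1 (chr4:115088588-115088707) lie on the plus strand.
Hbb-bt: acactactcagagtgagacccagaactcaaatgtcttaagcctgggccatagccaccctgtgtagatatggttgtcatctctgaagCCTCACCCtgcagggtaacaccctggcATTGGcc
Bank1: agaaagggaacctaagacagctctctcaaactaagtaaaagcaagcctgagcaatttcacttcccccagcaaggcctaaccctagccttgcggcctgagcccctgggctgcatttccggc
Cd5: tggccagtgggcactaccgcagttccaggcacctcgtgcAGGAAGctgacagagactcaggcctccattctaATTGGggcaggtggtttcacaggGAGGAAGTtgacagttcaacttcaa
Itgam: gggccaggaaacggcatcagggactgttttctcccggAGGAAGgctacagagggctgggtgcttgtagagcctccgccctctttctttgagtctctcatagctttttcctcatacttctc
Pdzk1ip1: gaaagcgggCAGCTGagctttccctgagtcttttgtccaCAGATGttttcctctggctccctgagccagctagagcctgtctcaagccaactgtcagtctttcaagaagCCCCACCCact

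Shorter sequences are shown where a DNase footprint, a short stretch protected from cutting, was listed in both libraries inside the promoter window and held a searched motif. Each covers the overlapping footprints of both libraries together with 5 bp on either side, on the strand of the gene. The first pair belongs to red cell genes and holds the GATA motif AGATAA, at Epb42 (chr2:121037072-121037113) and Trim10 (chr17:36869405-36869435). Cd72 (chr4:43454668-43454684) and Fcrl1 (chr3:87376348-87376383), both B cell genes, hold the PU.1-type motif. The antigen-presentation genes H2-Aa (chr17:34287861-34287913) and H2-Eb1 (chr17:34305762-34305824) hold CCAAT. Gfap (chr11:102900977-102901019), Npff (chr15:102525273-102525312) and 4930451I11Rik (chr7:126832095-126832137) hold the core motif of the architectural factor CTCF. Capitals mark these motifs.
Epb42: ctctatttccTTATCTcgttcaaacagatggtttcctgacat
Trim10: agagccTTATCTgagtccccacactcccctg
Cd72: caaagacctACTTCCTC
Fcrl1: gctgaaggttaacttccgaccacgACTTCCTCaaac
H2-Aa: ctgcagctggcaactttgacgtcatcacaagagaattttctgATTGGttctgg
H2-Eb1: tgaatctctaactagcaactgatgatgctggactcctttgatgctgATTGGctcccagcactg
Gfap: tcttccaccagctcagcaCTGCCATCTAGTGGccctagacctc
Npff: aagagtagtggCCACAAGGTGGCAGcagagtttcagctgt
4930451I11Rik: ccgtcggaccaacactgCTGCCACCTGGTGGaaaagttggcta

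Few promoters poor in CpG were open. Of all protein-coding promoters 12112 (55.2%) were open in both libraries, of the 6264 below the CpG cut 480 (7.66%) were, and of the 15674 at or above it 11632 (74.2%) were. Counted in a single library, 665 CpG-poor promoters (10.6%) had a peak in replicate 1 and 553 (8.83%) in replicate 2, of which 185 and 73 had it in that library alone, and 5526 had none. The share open in both libraries was 1.14% at a ratio below 0.05, 5.98% from 0.1 to 0.15, 13.3% from 0.2 to 0.25, 31.7% from 0.3 to 0.4 and 93.0% at 0.8 or more. The rise had no step at the cut. Just inside the cut lay Slamf6, a lymphocyte surface receptor with a ratio of 0.2493 and signals of 0.923 and 0.804 in replicates 1 and 2, and C1ra, a complement protease with a ratio of 0.2489 and signals of 1.65 and 0.988. Just outside, at 0.25, lay Hacd4, with signals of 0.761 and 0.293, and Tlr12, with 1.504 and 0.532. Mean signal had a median of 0.900 in the 169 members with a ratio from 0.20 to 0.25, and of 1.06 in the 192 open genes from 0.25 to 0.30.

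**Figure D1:**
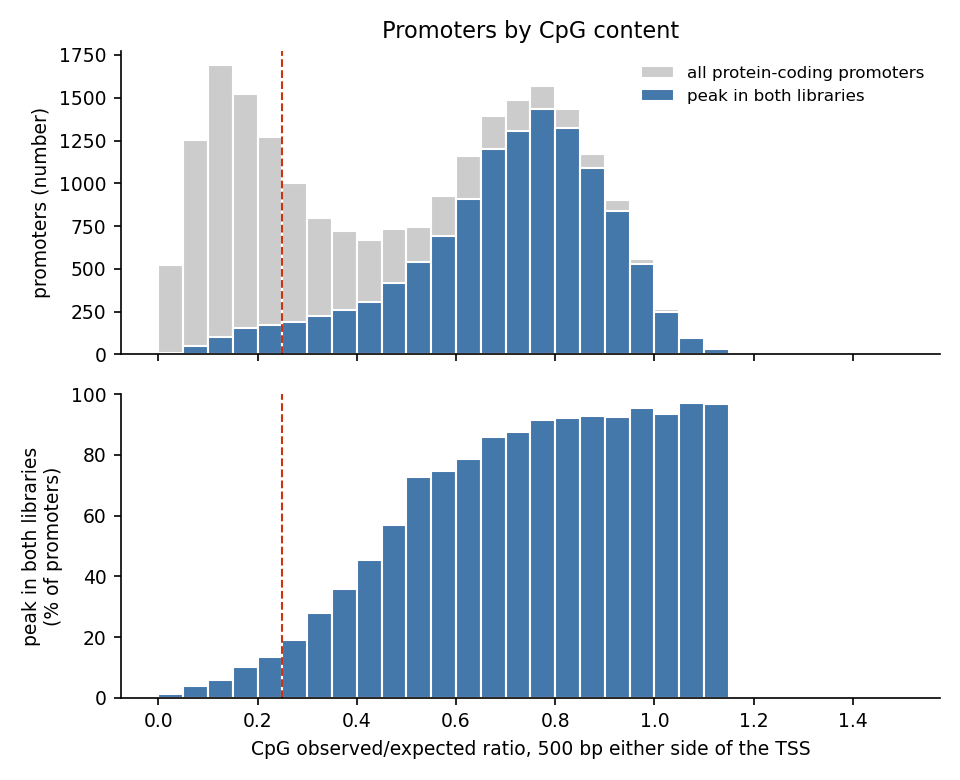
The upper panel gives the number of protein-coding promoters by CpG observed/expected ratio in steps of 0.05 (grey) and those with a peak in both libraries (blue), and the lower panel gives the open share in percent for steps with at least 20 promoters. The dashed line is the cut of 0.25, left of which lie the 480 open promoters among 6264.

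The open CpG-poor promoters had weaker peaks than other open promoters, though not weaker than peaks at large. Each promoter was given the strongest peak overlapping its window. Member signals ran from 0.146 to 19.5 in replicate 1, with a median of 1.05 and quartiles of 0.587 and 2.07, and from 0.138 to 7.16 in replicate 2, with a median of 0.664 and quartiles of 0.440 and 1.15. The mean of both libraries had a median of 0.879, against 6.43 in open promoters at or above the cut. Of the members, 473 (98.5%) lay below the latter median. The median over all peaks of a library was 0.578 in replicate 1 and 0.553 in replicate 2, below the member medians, which take the strongest peak of each window. Signals of the libraries kept a similar order, with a Spearman coefficient across the 480 genes of 0.894, against 0.972 across the 11632 others. Genes within a library are not independent replicates.

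The ratio of the libraries was lower at members than at other open promoters. Replicate 1 over replicate 2 gave a median log2 ratio of 0.70 (SD 0.56 over genes) at members and of 1.30 (SD 0.39) at open promoters at or above the cut. Replicate 2 had the higher signal at 62 of 480 members and at 125 of 11632 others. Part of the gap went with signal, since both sets had larger ratios at stronger promoters. Within quartiles of member signal, from weakest to strongest, the medians were 0.33, 0.59, 0.77 and 0.99 at members. Other open promoters in the same signal ranges had 0.82, 1.09, 1.18 and 1.31. The strongest range was wide, from 1.64 to 13.3, and held 120 members and 6862 others, so signal was not closely matched there. Among members with at least median signal, the ratio was lowest at Mr1, which presents vitamin metabolites to T cells (signals of 0.881 and 2.00), at H2-DMb1, which loads peptides on MHC class II (0.739 and 1.34), and at Rhag, an ammonia channel of the red cell membrane (1.01 and 1.80). It was highest at H2-DMb2, the neighbouring copy of H2-DMb1 (8.54 and 2.15), at Ly9, a lymphocyte receptor (2.82 and 0.766), and at Ckm, muscle creatine kinase (3.81 and 1.04).

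**Figure D2:**
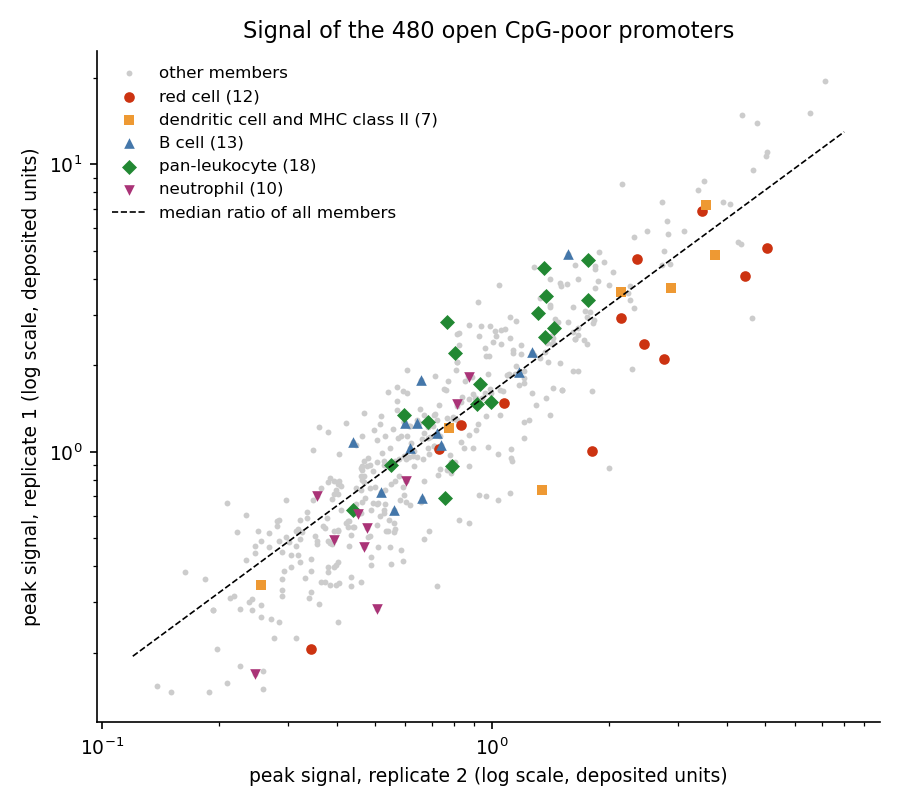
Each point is a member, with the signal of its strongest peak in replicate 2 on the horizontal axis and in replicate 1 on the vertical axis, both on log scales in deposited units, and coloured points belong to named gene lists. The dashed line is the median ratio of all members, and 5 of the 12 red cell promoters had the higher signal in replicate 2.

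The strongest members were of several kinds. Of the first 25, 6 belonged to a gene list for cell types or programmes of the spleen, and some had a peak beside another start site. The highest was Mknk2, a kinase that acts on a translation initiation factor, with signals of 19.5 in replicate 1 and 7.16 in replicate 2. This gene also had another TSS that was open and whose own window was at or above the CpG cut. Scgb1c1, a secretoglobin, followed with 15.04 and 6.56, but its peak centred at -526.5 and -536.5 bp from the TSS (negative is upstream) and its window held the TSS of another gene. Atp5j2, a subunit of ATP synthase, had 14.9 and 4.38. Its peak centred 481.5 and 491.5 bp inside the gene, within 1 kb of a TSS at or above the cut.

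Among the next members, several serve white cells. Ptpn7, a tyrosine phosphatase of lymphocytes, had signals of 11.1 and 5.07 with peaks centred at -89.5 bp in both libraries. Trim21, an intracellular antibody receptor, had 8.16 and 3.38. H2-Ab1 and H2-DMb2, both of the MHC class II pathway, had 7.23 and 3.54, and 8.54 and 2.15. Madcam1, the vessel ligand that lymphocytes home to, had 5.58 and 2.32, with the peak centred at -318.5 and -338.5 bp. Red cell genes among the first 25 were Trim10, Hbb-bs and Hbb-bt, described below.

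Most of the remainder of the first 25 were on no list. Cyp4f13, of the cytochrome P450 family, had signals of 14.0 and 4.78, Dus2, which modifies transfer RNA, 10.7 and 5.05, and Abcb8, a mitochondrial transporter, 9.58 and 4.68. Aanat, the enzyme that commits serotonin to melatonin, had 7.26 and 4.09, but its peak centred 528.5 bp inside the gene in both libraries, beyond the window. Hsd3b7, an enzyme of bile acid synthesis, had 6.38 and 2.81, Aldoc, the brain-type aldolase, 5.84 and 2.50, and Adprhl1, named for its likeness to ADP-ribose hydrolases, 5.86 and 3.12. Samd9l, an antiviral factor, had 5.39 and 4.28, but its peak had 1 near-identical copy elsewhere, so its signal is uncertain. Apol8 (5.30 and 4.35), Trim69 (7.38 and 3.91), G430095P16Rik (8.77 and 3.50), 4930451I11Rik (5.73 and 2.83), Sra1 (7.42 and 2.73) and the MHC class II gene H2-Eb1 (4.82 and 3.73) complete the group. Among the first 25, another gene's TSS fell in the windows of Scgb1c1, Ptpn7, Dus2 and H2-Eb1. Of the 25, 12 had the TSS inside a peak of both libraries, and 4 had peaks centred outside the window in both. In 5, the peak lay within 1 kb of a TSS at or above the CpG cut. Ranking by the mean of within-library ranks kept 24 of the 25, and 94 of the first 100.

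The members were read against 19 gene lists, 13 for cell types or programmes of the spleen and 6 for other tissues as controls. Of the CpG-poor genes on the first 13 lists, 90 of 246 (36.6%) were open. On the control lists 3 of 53 (5.66%) were, and on no list 387 of 5965 (6.49%). The lists were chosen with earlier results of these data known, so these shares are a description and not a test. Most members, 387 of 480, belonged to no list, and 21 of the first 100 belonged to a spleen list. By share open, pan-leukocyte (18 of 22, 81.8%), red cell (12 of 15, 80.0%) and B cell genes (13 of 19, 68.4%) came first. Exact binomial (Clopper-Pearson) 95% intervals, which cover counting error only, were 59.7 to 94.8, 51.9 to 95.7 and 43.4 to 87.4, so the order of these 3 is not resolved. In whole tissue, fewer cells of a type and less open chromatin per cell cannot be told apart.

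**Figure D3:**
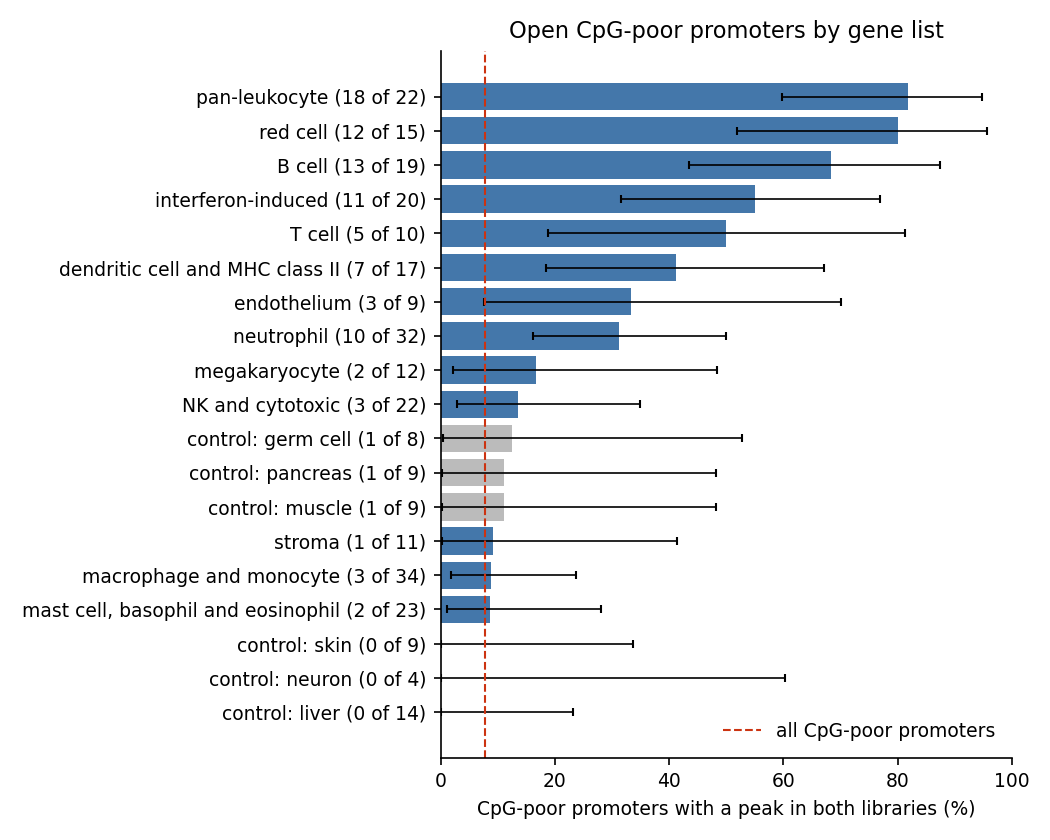
Bars give, for each gene list, the percent of its CpG-poor promoters with a peak in both libraries (counts beside the name), with 95% exact binomial intervals, blue for spleen lists and grey for control tissues. The dashed line is the 7.66% of all CpG-poor promoters, and the liver, neuron and skin controls had none open.

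Red cell genes were among the strongest members that belong to a lineage. Their signal had a median of 2.24 in replicate 1 and 2.25 in replicate 2, and 7 of 12 were among the first 100 members. Hbb-bs and Hbb-bt, which encode the adult beta chains of hemoglobin, had nearly equal signals in both libraries, at 5.12 and 5.07 for Hbb-bs and at 4.10 and 4.46 for Hbb-bt. Trim10, a ubiquitin ligase of maturing red cells, had 6.91 and 3.46, with a peak centred 526.5 bp inside the gene, and Epb42, a protein of the red cell membrane skeleton, had 4.67 and 2.35. The blood group protein gene Kel (2.93 and 2.14) and the lineage transcription factor gene Klf1 (2.10 and 2.76) followed. Slc4a1, the anion exchanger, had 1.48 and 1.08, and Alas2, which starts heme synthesis, 1.25 and 0.833.

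The weakest red cell members were Hba-a1, an alpha chain gene of hemoglobin (1.02 and 0.733), and Car1, carbonic anhydrase (0.206 and 0.343). The search for near-identical copies described below found none of the Hba-a1 peak. Steap3, Hemgn and Hba-a2 had no peak in either library. The copy search covered peaks of members only, so whether the Hba-a2 window has a near-identical copy was not tested. Red cell members had a median log2 ratio of 0.23 between the libraries, against 0.70 over all members, a difference of -0.46 that ranged from -0.22 to -0.78 under the alternatives tried. Medians were also low in the interferon-induced (0.25), megakaryocyte (0.28), T cell (0.36) and neutrophil lists (0.37), and no test of these differences was made. Those lists were weaker, with median mean signals of 0.501, 1.14, 0.560 and 0.520, against 2.42 in red cell members. Medians of the NK and cytotoxic (0.42) and the dendritic cell and MHC class II lists (0.43) also lay below 0.70. The latter list was not weaker, with a median mean signal of 2.87. Medians above 0.70 were found in the B cell (0.74) and pan-leukocyte lists (0.89), among others. By quartile of signal, the median ratio over all members was 0.33 in the weakest and 0.99 in the strongest. Genes with the higher signal in replicate 2 included Hbb-bt, Klf1, Rhag and Car1.

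B cell members were more even and weaker. Their signal had a median of 1.16 in replicate 1 and 0.657 in replicate 2, and replicate 1 had the higher value at all 13. Cd79b, a signalling chain of the B cell receptor, led with 4.89 and 1.57, followed by the adaptor gene Bank1 with 2.22 and 1.27. Spib, an ETS factor of B cells, had 1.90 and 1.18. The kinase gene Blk (1.26 and 0.641), the inhibitory receptor gene Cd72 (1.16 and 0.724) and Ms4a1, which encodes CD20 (1.05 and 0.741), were near the median of all members. Cd180, Siglecg, Ly6d, Fcrl1, Fcrla and Fcmr had mean signals from 0.594 at Fcmr to 0.930 at Cd180. Of genes of B cell precursors, Igll1 had a peak in replicate 1 alone and Rag2 in replicate 2 alone, and Vpreb2 had none. Cxcr5 was open in replicate 2 alone, and Fcer2a and Fcrl5 in neither library.

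T cell members were few and weak, and natural killer (NK) cell genes were mostly closed. Of 10 CpG-poor T cell genes 5 were open (50%, interval 18.7 to 81.3). Cd5, a restraining receptor of T cells, had 1.35 and 1.05, Cd3g, a chain of the T cell receptor complex, 1.20 and 0.498, the costimulatory receptor gene Cd27 0.630 and 0.490, and Themis, needed for thymocyte selection, 0.439 and 0.306. The kinase gene Txk had 0.386 and 0.343. Il2ra and Cd3d had a peak in replicate 2 alone, and Cd28, Trat1 and Ptcra in neither. Of 22 NK and cytotoxic genes 3 were open (13.6%, interval 2.91 to 34.9), namely Prf1, which encodes perforin (1.26 and 0.423), Cd244a (0.615 and 0.461) and the lectin-like receptor gene Klrd1 (0.225 and 0.276). That interval included the 7.66% of all CpG-poor promoters. No CpG-poor granzyme or mast cell protease gene was open (0 of 13).

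Genes listed as common to white cells gave 18 members, the most of any list. That list is not neutral among white cells, since it held the lymphocyte genes Gimap8, Traf3ip3 and Ly9. Rac2, a GTPase of blood cells, had signals of 4.64 and 1.76, Gimap8, a GTPase of lymphocytes, 4.36 and 1.36, and Cd52, a small surface glycoprotein, 3.39 and 1.76. Traf3ip3, an adaptor of lymphocytes, had 3.49 and 1.38. The integrin chain gene Itgb2 (2.51 and 1.37) and the actin regulator gene Was (1.27 and 0.687) lay lower. Replicate 1 had the higher signal at all of the 18 except Cd53 (0.694 and 0.758). Ptprc, which encodes the common leukocyte antigen CD45, and Lcp2 had a peak in replicate 2 alone, and Cd84 and Cytip in neither.

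Antigen-presentation genes were the most open part of the dendritic cell list. H2-Ab1, H2-Eb1 and H2-Aa, which encode chains of MHC class II, had 7.23, 4.82 and 3.71 in replicate 1 and 3.54, 3.73 and 2.87 in replicate 2. Cd74, the invariant chain that guides class II molecules, had 3.597 and 2.14, and H2-DMb1 0.739 and 1.34. Tlr9, a sensor of microbial DNA, had 1.22 and 0.775, and Siglech, a marker of plasmacytoid dendritic cells, 0.345 and 0.255. At the most upstream TSS, 10 genes of this list had no peak in either library. They included the dendritic cell markers Itgax, Clec9a, Cd209a and Ccl22, and Ciita, which switches class II genes on. Other start sites of these genes were not examined. Class II genes are shared with B cells, and the part of either cell type in these peaks was not tested.

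CpG-poor myeloid genes were mostly closed, and by the lists used more of the open ones were neutrophil than macrophage and monocyte genes. Of 32 CpG-poor neutrophil genes 10 were open (31.2%, interval 16.1 to 50), whereas 0 of 7 neutrophil genes at or above the CpG cut were. Wfdc21 had 1.83 and 0.875 with the peak centre beyond the window, S100a8, a calcium-binding protein of granulocytes, 1.46 and 0.812, and Itgam, the CD11b integrin chain, 0.795 and 0.603. The granule protein genes Ltf (0.705 and 0.356) and Camp (0.608 and 0.452) and the S100a8 partner S100a9 (0.544 and 0.477) were below the median of all members, and so were Trem1, Trem3, Anxa1 and Stfa1. Stfa1 had a near-identical copy and is uncertain. Elane, Mpo, Lcn2, Mmp9, Ly6g and Csf3r had no peak in either library. Of 34 macrophage and monocyte genes 3 were open (8.82%, interval 1.86 to 23.7), against 10 of 16 at or above the cut. They were Cd68, a lysosomal protein (2.20 and 1.19), Tyrobp, a signalling adaptor shared with NK cells (1.13 and 0.737), and Lyz2, lysozyme (0.469 and 0.431). The 8.82% was near the 7.66% of all CpG-poor promoters. Csf1r, Adgre1, Cd163, Cd5l and Spic, the factor needed for red pulp macrophages, had no peak at this TSS in either library. With peaks at or above the median signal of their library, 3 of 32 neutrophil and 2 of 34 macrophage and monocyte genes were open.

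Rarer cell types gave few members. Pdzk1ip1 (1.92 and 1.66) and Itga2b, the platelet integrin chain (0.548 and 0.427), were open among 12 megakaryocyte genes (16.7%). Il5ra, the interleukin-5 receptor chain of eosinophils (0.671 and 0.465), and Prg3, an eosinophil granule protein (0.544 and 0.373), were open among 23 genes of mast cells, basophils and eosinophils (8.70%). Icam2 (1.76 and 0.770), Stab1 (0.506 and 0.297) and the vessel cadherin gene Cdh5 (0.450 and 0.289) were open among 9 endothelial genes (33.3%), and Madcam1 alone among 11 stroma genes (9.09%). The T zone and follicle chemokine genes Ccl19, Ccl21a and Cxcl13 had no peak at this TSS in either library. Intervals for these lists reached from 0.230% to 70.1%, so lists of this size give no order among them. Each of the intervals included the 7.66% of all CpG-poor promoters, and the shares of 8.70% and 9.09% were near it.

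Interferon-induced genes were open in 11 of 20 cases (55%, interval 31.5 to 76.9) at low signal. Slfn3 (2.04 and 1.49), Gbp5 (1.80 and 1.21) and Slfn8 (1.16 and 0.670) led, followed by Zbp1, a sensor of left-handed nucleic acids (0.709 and 0.595). Slfn1, Slfn2, Gbp2, Gbp3, Oas3, Mx1 and Ifi203 had mean signals from 0.261 at Ifi203 to 0.584 at Slfn2. The classic induced genes Ifit1 and Isg15 had a peak in replicate 2 alone, and Ifit3, Oas1a and Oas2 in neither.

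The 3 control genes among the members had their peaks away from the TSS. They were 1 of 9 muscle (11.1%), 1 of 9 pancreas (11.1%) and 1 of 8 germ cell genes (12.5%), and the 5.66% open over all control lists was near the 7.66% of all CpG-poor promoters. None of 14 liver, 4 neuron or 9 skin genes was open, with upper limits of 23.2%, 60.2% and 33.6%. Ckm of the muscle list had peaks centred at -555.5 bp, beyond the window. They lay within 1 kb of a TSS at or above the cut. The pancreas gene Cpa1 (0.679 and 0.582) had them at -397.5 and -387.5 bp, and the sperm protamine gene Prm1 (0.904 and 0.486) at -531.5 and -490 bp. Sensory receptor genes made up 1454 of the CpG-poor set, and of these 2 of 1094 olfactory, 0 of 323 vomeronasal and 0 of 37 taste receptor genes were open. The olfactory receptor genes Olfr557 (1.04 and 0.850) and Olfr464 (1.17 and 0.381) had peaks centred at -309.5 and -203.5 bp in replicate 1. No CpG-poor keratin gene was open (0 of 61), while 18 of 47 genes named as CD antigens, 5 of 6 Schlafen, 6 of 9 guanylate-binding and 3 of 3 GIMAP genes were.

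Runs of neighbouring members were found on several chromosomes. Of the 480, 144 (30%) had another member within 100 kb, and 14 runs of at least 3 members held 58. The same share was not computed for other promoters. The longest held 9 members in the MHC class II region of chromosome 17, H2-Oa, H2-DMb2, H2-DMb1, H2-Ob, H2-Ab1, H2-Aa, H2-Eb1, H2-Eb2 and Btnl2. Within it, mean signal ran from 0.859 at H2-Oa to 5.39 at H2-Ab1. A run of 6 on chromosome 6 held 3 GIMAP genes with Tmem176a and Tmem176b, 5 Schlafen genes lay on chromosome 11, and 5 Trim12 and Trim30 genes on chromosome 7. In the last run, Trim30b (0.720 and 1.11), Trim30a (0.416 and 0.590), Trim30d (0.150 and 0.260) and Trim12a (0.353 and 0.373) had the higher signal in replicate 2. Trim12c (2.06 and 1.39), whose peak had a near-identical copy, did not. Further runs of 4 joined the interferon-inducible genes Ifi206, Ifi214, Ifi209 and Ifi208, the receptor genes Trem1, Trem3 and Treml2 with B430306N03Rik, and the complement genes C1rl, C1ra, C1s1 and C1rb. Gbp9, Gbp8 and Gbp4 share nearly the same annotated start and 1 peak (1.27 and 0.595), which also has a near-identical copy, and so are not separate observations. In all, members had 471 distinct strongest peaks in replicate 1, and 23 members had a near-identical copy of theirs, defined by at least 95% identity over at least 90% of the peak.

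Peaks clustered at the start site without always covering it. The midpoint of the strongest peak lay at a median of -11.0 bp from the TSS in replicate 1 and of -12.8 bp in replicate 2, with quartiles of -78.8 and 128 bp, and of -84.5 and 102 bp. Median peak widths were 200 and 212 bp. The TSS lay inside a peak of both libraries at 252 members (52.5%), of 1 library at 86, and of neither at 142 (29.6%). Median mean signals were 0.958 where both covered it and 0.879 where neither did. Another gene's TSS fell in the window of 39 members. In 75 (15.6%), the strongest peak lay within 1 kb of a TSS at or above the CpG cut. Their median mean signal was 0.857 against 0.884 in the others. Another open TSS of the same gene, at or above the cut, was present in 103 members (21.5%). Members of either kind, with a TSS at or above the cut near the peak or an open one of their own, were then set aside. With a peak over the TSS also required in both libraries, 195 were left. The strongest replicate 1 peaks themselves had a median CpG ratio of 0.205. Of these peaks of the 480 members, 172 were at or above the cut of 0.25, and 9 reached 0.6.

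**Figure D4:**
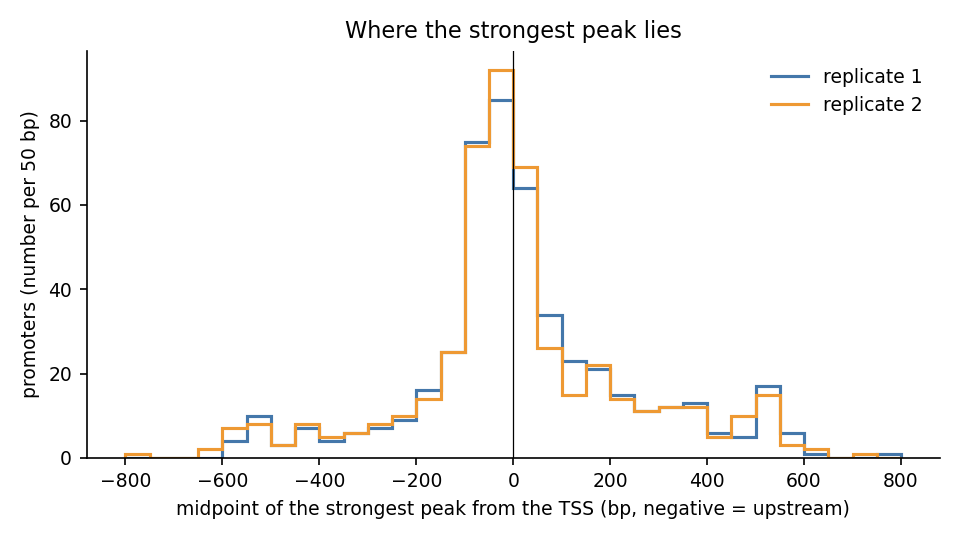
Lines give the number of members per 50 bp by the distance of the midpoint of their strongest peak from the TSS, with negative values upstream, for replicate 1 (blue) and replicate 2 (orange). In both libraries the largest number, 85 and 92, lay in the 50 bp upstream of the TSS.

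Footprints were about as frequent at members as at other open promoters in the same signal ranges. A footprint overlapping a peak of the window was listed in both libraries at 419 members (87.3%, interval 84.0 to 90.1) and at 96.6% of open promoters at or above the cut. By quartile of member signal the shares were 69.2%, 85.7%, 95.04% and 99.2% at members, and 67.1%, 91.1%, 94.7% and 99.6% at other open promoters in those ranges. Overlapping footprints of both libraries were found at 361 members, 825 in all. Motif matches are letter matches and not evidence of a bound factor.

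Some motifs of white cell factors were more frequent in the windows of members than in closed CpG-poor windows, and others were not. The PU.1-type motif GAGGAAGT, searched on both strands, was in 18.3% of member windows, 7.89% of those of CpG-poor promoters open in neither library, 6.13% of those of open promoters at or above the cut, and 6.86% of all. Member windows had a higher G+C content, with a median of 50.2% against 43.8% in closed CpG-poor windows. Among windows with 45 to 55% G+C the PU.1-type motif was in 67 of 327 members (20.5%) and 170 of 2033 closed promoters (8.36%). The shorter ETS motif AGGAAG, which GAGGAAGT contains, was in 89.2% of member windows and 71.5% of all, and in 91.4% against 82.4% of the G+C matched windows. The CACCC motif CCNCNCCC was in 80.2% of member windows and 78.5% of all, and matched on G+C in 82.9% against 69.0%. The IRF motif of GAAA, any pair of bases and GAAA was in 15% of member windows, 14.5% of closed windows and 11.0% of all. In the matched windows it was in 15% against 10.1%. The RUNX motif TGTGGT was in 60.4% of member windows and 41.5% of all, and matched in 63.3% against 57.0%. The CEBP motif TTGCNCAA, of a family that includes myeloid factors, was in 10.2% of member windows, 9.74% of closed windows and 8.14% of all, and matched in 8.26% against 9.74%.

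The GATA motif AGATAA and the CCAAT motif set members apart less, and both were less frequent in them than in closed CpG-poor windows before matching on G+C. AGATAA was in 39.0% of member windows, 49.6% of closed windows and 30.6% of all, with 39.4% against 36.6% after matching on G+C, and in 8 of the 12 red cell windows. CCAAT was in 70.6% of member windows, 80.1% of closed windows and 70.7% of all, and matched in 71.3% against 75.8%. The CTCF core was in 3 member windows, in 1 closed CpG-poor window, in 8 at or above the cut that were open, and in 12 of all 21938.

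**Figure D5:**
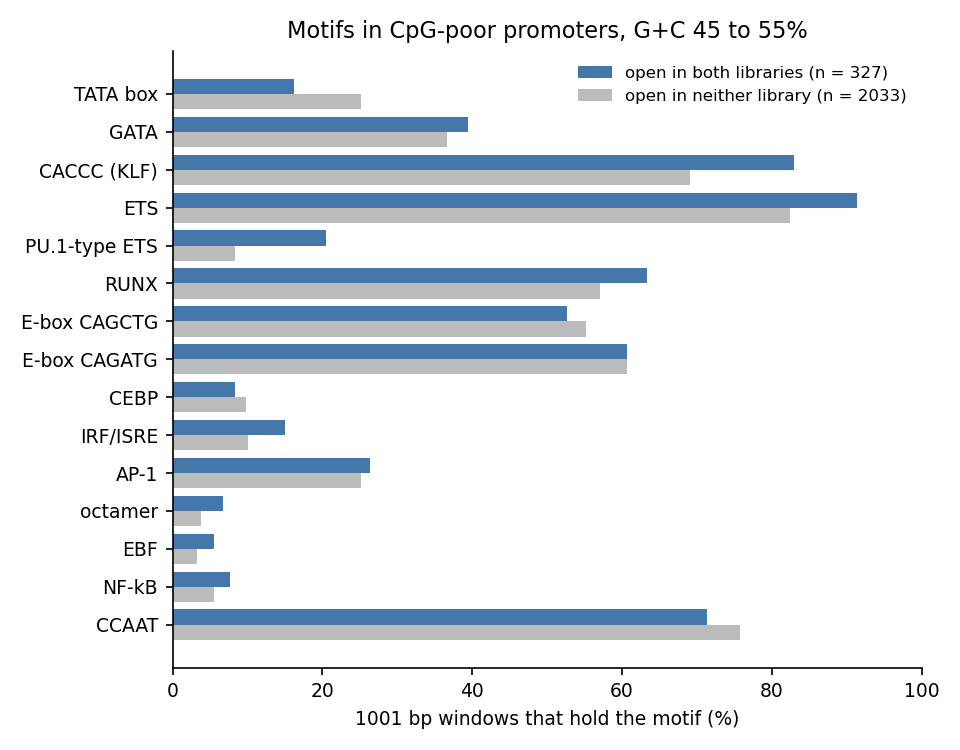
Bars give the percent of promoter windows with 45 to 55% G+C that hold each motif at least once, for CpG-poor promoters open in both libraries (blue, 327) and in neither (grey, 2033). The PU.1-type motif stands at 20.5% and 8.36%.

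Inside shared footprints, motifs fell at genes of several kinds. AGATAA was in a shared footprint of 12 of the 361 members with any (3.32%) and of 1.43% of 10902 other open promoters. These members included the red cell genes Epb42 and Trim10, but also the muscle gene Ckm, H2-Eb1, Tspan1, Tmem88b and Gm28035. At Epb42 and Trim10 the printed stretches centred at -20 and -154 bases from the TSS. The PU.1-type motif was in those of 6 members (1.66%, against 0.807% of the others), Cd72, Fcrl1, Tyrobp, Traf3ip3, Scimp and Ccdc88b. At Cd72 and Fcrl1 the stretches centred at -48 and -22 bases. CCAAT was in those of 32 members (8.86%), a smaller share than the 22.9% of the others, and these included H2-Aa, H2-Ab1, H2-Eb1, Cd74, Hbb-bs and Hbb-bt beside many genes on no list. IRF matches were in those of 6 (1.66%, against 0.954%), including the interferon-related genes Trim21, Zbp1 and Trim12c. Shares per promoter also depend on footprint number, and the 361 members held 825 shared footprints while the 10902 others held 61663. Per footprint, AGATAA was in 1.58% at members and 0.282% at others, and the PU.1-type motif in 0.848% and 0.148%. IRF matches were in 0.727% and 0.185% of footprints, and CCAAT in 4.12% and 5.69%. Every searched motif except CCAAT and CCNCNCCC (14.7% and 21.8%) was in a larger share of footprints at members. CAGCTG was in 4.61% and 1.11%, TTGCNCAA in 0.485% and 0.12%, and TATAAA in 1.09% and 0.433%. Footprints were not matched on G+C. The median G+C of windows was 50.2% over all members and 59.3% over open promoters at or above the cut. All 3 members with the CTCF core, 4930451I11Rik, Gfap (signals of 5.02 and 2.76) and the neuropeptide gene Npff (4.47 and 2.73), had it inside a shared footprint. Gfap encodes an intermediate filament known from astrocytes and is not a marker of a spleen cell.

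A TATA box at the usual distance from the annotated start was found in few members. The most upstream annotated TSS can lie upstream of the start a gene commonly uses, which bears on this count and on the printed Hbb-bt sequence. The letters TATAAA, on the strand of the gene 20 to 40 bases upstream of the TSS, were found in 6 members (1.25%, interval 0.460 to 2.70), in 303 CpG-poor promoters open in neither library (5.48%) and in 0.714% of open promoters at or above the cut. The 6 were Laptm5, Serpinb1a, Acy3, Srpk3, Adamtsl2 and Ecm1. Serpinb1a, a protease inhibitor of granulocytes (2.62 and 1.62), held it inside a shared footprint. At Hbb-bt and S100a8, TATAAA also lay in shared footprints, but these centred 46 bases and 49 and 71 bases downstream of the annotated start. They were therefore not among the 6. Anywhere in the window, TATAAA was in 19.2% of members, 39.4% of closed CpG-poor promoters and 21.1% of all.

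Open CpG-poor promoters had more distal sites nearby than closed ones. Distal sites were merged peaks of both libraries more than 500 bp from any TSS, counted within 50 kb. Members had a mean of 5.85 and a median of 5, closed CpG-poor promoters a mean of 2.02 and a median of 1, and open promoters at or above the cut a mean of 4.66. None was found around 5.21% of members and 47.5% of closed promoters, or 36.6% of the latter with sensory receptor genes left out. The most were at Hist1h1d, a linker histone gene in a histone cluster (33), the red cell gene Slc4a1 (27) and Chit1, a chitinase (25). Sites in windows of neighbouring members were counted for each, and the difference was not tested.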

How the data were processed

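DNase-seq peaks and footprints of 2 spleen libraries were used as deposited. Peak signal is column 7 of the longer list deposited by the authors (130476 peaks in replicate 1, 95847 in replicate 2). The sources used here name neither its scaling nor the aligner, callers or versions. Per the deposited README the libraries were not pooled and the assembly is mm10. Footprints carry a constant value of 0.01 as deposited and were used by position.

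The CpG ratio was computed from GRCm38 around the most upstream TSS, leaving out 13 mitochondrial genes. Shares have exact binomial 95% intervals. Near-identical copies were searched with blastn 2.17.0. Other steps used Python 3.11.15, pandas 2.3.3 and pysam 0.24.0, and were tested on simulated data. There was 1 group, so no test between groups was made.

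The members, 19 gene lists (555 of 558 entries matched), 26 families and 16 motifs were chosen with earlier results of these data known. Genes named were the 25 highest mean signals, the 4 highest of each list (3 for controls), the extremes of the library ratio, the nearest to the cut and the 3 with most distal sites. The other genes named, and the printed footprints, were chosen after their values were seen, and some items the rule picks are not reported here. Alternatives covered the peak list, peak strength, CpG cut, window, TSS, neighbours, distal window and each replicate left out.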

Additional observations from a re-analysis of the deposited data

How the results depend on the processing

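Counts and shares changed with the definition of an open promoter. Against 480 promoters, 311 were left with a CpG cut of 0.20, 286 with peaks at or above the median signal of their library and 252 with a peak over the TSS. Against 7.66%, the percent open was 6.99 with 250 bp windows, 6.23 and 9.25 with cuts of 0.20 and 0.30, 4.02 with a peak over the TSS, 5.57 with the shorter deposited lists, 4.57 with stronger peaks, and 9.94 with sensory receptor genes left out, an alternative chosen after seeing the data. It was 8.83 without replicate 1 and 10.6 without replicate 2. Mean distal sites (5.85) were 3.16 within 25 kb, 10.9 within 100 kb and, with sites of a single library, 7.20 without replicate 1 and 12.2 without replicate 2. The median mean signal (0.879) was 1.43 with stronger peaks. The share with footprints (87.3%) was 93.7 with a peak over the TSS, 90.8 with the shorter lists, 95.1 with stronger peaks and 87.0 to 91.6 without a replicate. The red cell difference in log2 ratio (-0.46) kept its sign, at -0.22 with 250 bp windows, -0.25 with a cut of 0.30, -0.78 with a peak over the TSS, -0.25 with basic coding transcripts, -0.69 without windows holding another gene's TSS, -0.30 with the shorter lists and -0.32 with stronger peaks. Among lists, stronger peaks left 0% of NK and of mast cell, 10.0% of T cell, 20% of interferon-induced and 9.38% of neutrophil promoters open. The shorter lists left 25% of interferon-induced and 12.5% of neutrophil promoters, and a peak over the TSS 30% of interferon-induced ones. All 12 red cell promoters below a cut of 0.20 were open (100%). The stroma, muscle, pancreas and germ cell lists, with 1 open promoter each, fell to 0% with 250 bp windows and with a peak over the TSS, the stroma, muscle and germ cell lists also with a cut of 0.20, the germ cell list with stronger peaks and the muscle list with basic coding transcripts. Of 286 alternative values, 239 stayed within their tolerance (the binomial interval for shares, 1.5 times for counts, the spread over genes for signal and distal sites, 0.1 for the log2 ratio) and 47 moved. The cause was not tested. Peak lists without read totals limit what can be said of weak promoters.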
